A study of Mus musculus with 56 samples.

Results

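This comparison set the visceral adipose tissue (VAT) of mice under daytime-restricted feeding (DRF) at zeitgeber time 20 (ZT20) against that of mice under nighttime-restricted feeding (NRF) at ZT8. Zeitgeber time counts hours from lights on, so both groups had been without food for 8 h, but the DRF libraries came from the dark phase and the NRF libraries from the light phase. It used 8 of the 56 libraries of the study, 4 in each group, chosen by their labels for regimen and time. All mice were C57BL/6J females of 9 weeks on normal chow, kept under 12 h of light and 12 h of darkness, and had been on their regimen for 7 days. The labels name no altered allele and no agent, and set the groups apart by feeding schedule and time of collection. Polyadenylated RNA was sequenced. Libraries are numbered in the labels without a statement on the animal behind each number, and p-values measure the spread between these libraries. The 4 libraries of NRF ZT20 and the 4 of DRF ZT8, both collected 8 h into the feeding period, and the libraries of DRF ZT16 and NRF ZT4, collected after 4 h without food, served for comparison. Because regimen and zeitgeber time change together in the main pair, feeding schedule and light phase cannot be told apart within it.

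The circadian clock of mammalian cells is a transcriptional loop. BMAL1, the product of Arntl, pairs with CLOCK or NPAS2 and binds E-box sequences to activate the Per, Cry, Nr1d and Dbp genes. PER and CRY proteins then repress this pair, whereas the nuclear receptors REV-ERBα and REV-ERBβ (Nr1d1 and Nr1d2) and the ROR proteins compete over Arntl, Npas2, Cry1 and Nfil3. In adipose tissue the clock coexists with the response to food. Feeding raises insulin and the synthesis of fatty acids and cholesterol, and fasting favours lipolysis, the release of stored triglyceride as fatty acids.

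Reads assigned to genes, recovered from the deposited values, ranged from 31165897 to 34212892 under DRF ZT20 and from 35196393 to 40506351 under NRF ZT8, so that every NRF ZT8 library was deeper than every DRF ZT20 library. The part of depth in the results was not tested. All 8 adipocyte markers were present in every library, with summed levels of 31984 to 43962 counts scaled to the library size (CPM) under DRF ZT20 and 28941 to 36484 CPM under NRF ZT8. Skeletal muscle genes set 1 library apart. The 16 measured muscle markers summed to 889 CPM in NRF ZT8 replicate 4, against 56.9 to 82.7 CPM in the other NRF ZT8 libraries and 89.5 to 423 CPM under DRF ZT20. Myh4 was at 0 in DRF ZT20 replicate 3, and Myh7 and Pvalb in NRF ZT8 replicate 2. None of the 16 passed the test, and each result below was also computed without NRF ZT8 replicate 4. That does not even out the muscle markers: without it every DRF ZT20 sum lay above every NRF ZT8 sum, and the median difference of the list went from 0.10 to 1.15, with no member called. Among the other marker lists, liver markers summed to 25.1 to 42.1 against 14.8 to 20.6 CPM and exocrine pancreas markers to 15.1 to 26.7 against 7.44 to 11.2 CPM, in DRF ZT20 and NRF ZT8, without overlap in either list, with Ttr, Apoh or Cpa1 at 0 in several libraries of either group. Of 6 pancreas markers, 3 were measured and 1, Cela1, was tested. In DRF ZT20 replicates 3 and 4, Cpa1 and Cpb1 were both at 0, so that Cela1 alone made up the sum. Macrophage (935 to 1393 against 1050.2 to 2184 CPM) and adipose progenitor markers (1856 to 2174 against 1815 to 3102 CPM) overlapped. Estimates were lower in 6 of 8 macrophage (median -0.32) and 5 of 6 progenitor markers (median -0.21). NRF ZT8 replicate 2 had the highest sum in both lists, and also in those of mesothelium (674 CPM) and B cells (176 CPM). Endothelial markers did not overlap, at 798 to 911 against 662 to 787 CPM, with 4 of 5 estimates higher under DRF ZT20 (median 0.22) and none called. B cell markers did not overlap either, at 78.2 to 107 against 112 to 176 CPM, with all 6 estimates lower (median -0.52) and none called. Mesothelial sums overlapped, at 377 to 474 against 322 to 674 CPM, but all 7 estimates were lower (median -0.10), none called. Of the 80 marker genes tested, 5 (6.25%) were called against 9.43% of all genes, and they are named after their values were seen: Alb (0.98), Cela1 (1.16) and Pi16 (0.55) rose and Pparg (-0.47) and Mrc1 (-0.39) fell, as differences in log2(CPM + 1). Pi16 was the only progenitor marker with a higher estimate. The adipocyte estimates, that of Pparg among them, were higher in 4 and lower in 4 (median 0.12). Without NRF ZT8 replicate 4, Pi16, Pparg and Mrc1 were not called (adjusted p = 0.093, 0.113 and 0.0978). In the fed pair, 1 library stood apart. Uterine or oviduct epithelium markers summed to 479 CPM in DRF ZT8 replicate 1, against 17.5 to 23.3 CPM in the other DRF ZT8 libraries, and its adipocyte markers to 14363 against 30220.0 to 38868 CPM. Results of the fed pair were therefore also computed without it. The part of these cells in the results below was not tested. In bulk tissue, fewer cells of a type and less RNA per cell cannot be told apart.

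After 8 h without food under both regimens, the mice still differed in 1480 of 15696 genes tested (9.43%), of which 800 (5.1%) were higher and 680 (4.33%) lower under DRF ZT20 than under NRF ZT8. The test was limma on log2(CPM + 1) with a Benjamini-Hochberg adjusted p under 0.05, in genes averaging at least 0.5 CPM, and 95% confidence intervals below are not adjusted for the number of genes. At an unadjusted p under 0.05, 4622 genes differed. Of the 1480 genes, 191 differed at least 2-fold, 113 higher and 78 lower. Genes whose 4 values in one group all lay above the 4 of the other numbered 2529 (16.1%). The number of calls depended on single libraries. It fell to 385 (2.45%) without NRF ZT8 replicate 4, 193 (1.23%) higher and 192 (1.22%) lower, of which 375 were also called with all 8 libraries. It fell to 232 without DRF ZT20 replicate 2, 269 without DRF ZT20 replicate 3, 713 without DRF ZT20 replicate 4, 440 without NRF ZT8 replicate 1 and 591 without NRF ZT8 replicate 2, and it was 2849 without NRF ZT8 replicate 3. In all, 214 genes, 108 of them higher under DRF ZT20, passed in each of the 8 fits that left out 1 library. Scaling by plain read totals in place of the scaling held in the deposited values moved the median difference of all genes from 0.01 to -0.11 and the calls to 510 higher and 1247 lower, and differences below are relative to the deposited scaling. With no filter on low values 649 genes were called, and of the genes described below Npas2, Pm20d1, Hsp90aa1, Cirbp, Tsc22d3, Myc, Angptl4, G0s2, Abhd5, Mogat2, Scd2, Acacb, Lss, Idi1, Rbp4 and Irf7 were no longer among them (adjusted p = 0.0543 to 0.0881). On the deposited values unchanged 407 genes were called, and among the lists below only those of clock, heat shock (2) and glucocorticoid genes (2) held any of them.

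Core clock genes differed between the fasted groups in both directions. Of 5 clock activators tested, 3 rose under DRF ZT20 and none fell, with a list median of 0.75 against 0.01 over all genes. Of all genes 5.1% rose and 4.33% fell, shares that apply to the count of each list below. Arntl (chromosome 7, 113207465 to 113314126, GRCm38) measured 15.1, 18.4, 16.8 and 13.1 CPM in the DRF ZT20 libraries and 3.61, 3.42, 2.31 and 3.67 CPM in those of NRF ZT8. The groups did not overlap, and the difference in log2(CPM + 1) was 1.99 ± 0.15 (SE, adjusted p = 0.000203), a 3.97-fold change of CPM + 1. Clock, the partner of BMAL1, measured 76.3, 88.3, 88.1 and 69.9 CPM against 47.8, 40.3, 50.97 and 51.1 CPM, again without overlap, and differed by 0.75 ± 0.11 (SE, adjusted p = 0.00675). Npas2, which can take the place of Clock, lay at 3.38, 4.33, 4.24 and 3.31 CPM against 2.07, 1.27, 1.11 and 2.48 CPM. Its difference of 0.84 ± 0.17 (SE, adjusted p = 0.0209) was called with all libraries but not without DRF ZT20 replicates 2 or 3 or NRF ZT8 replicate 2 (adjusted p = 0.0521 to 0.0762). Rora, an activating receptor of the loop, was not called and differed by 0.19, 95% confidence interval -0.12 to 0.50.

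**Figure D1:**
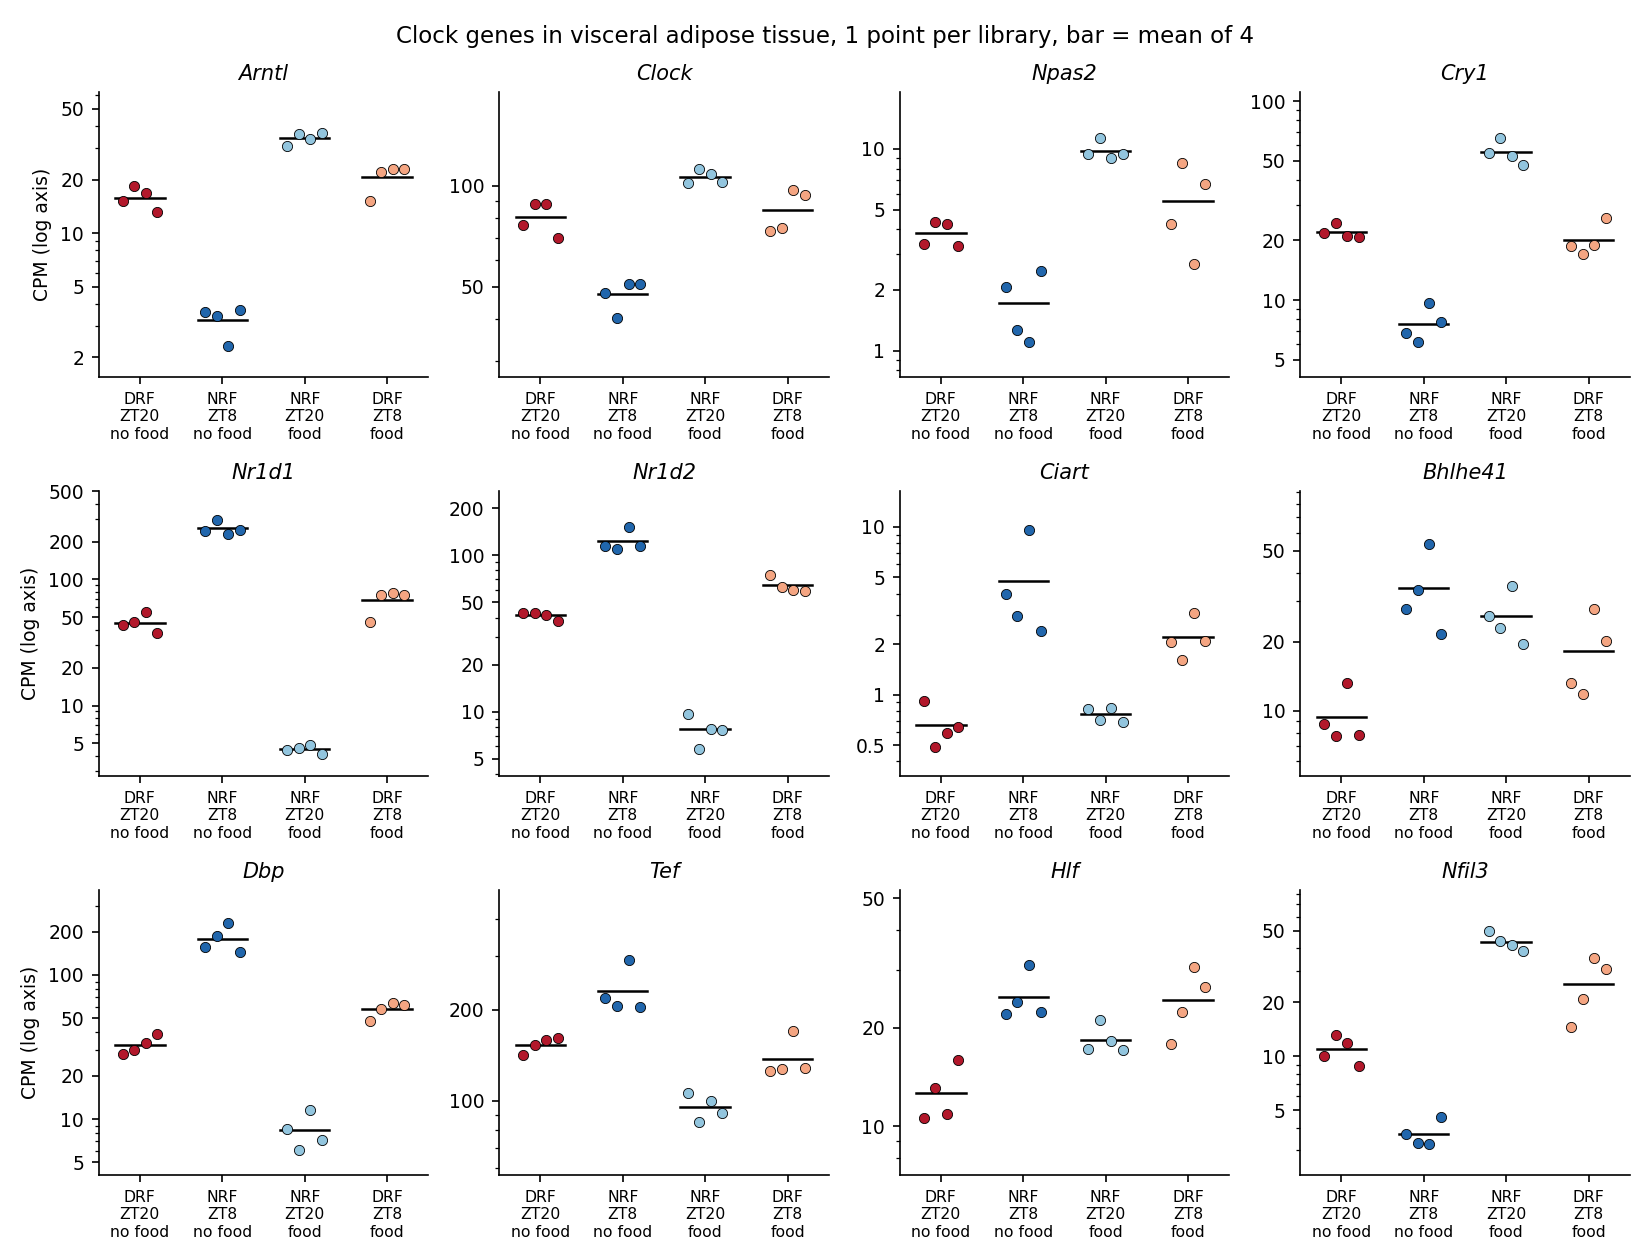
Level of 12 clock genes in CPM on a log axis, 1 point per library and a bar at the mean of the 4 libraries, in the fasting-aligned pair (DRF ZT20, NRF ZT8) and in the fed pair (NRF ZT20, DRF ZT8). Arntl sits between 13.1 and 18.4 CPM under DRF ZT20 and between 2.31 and 3.67 CPM under NRF ZT8, and Nr1d1 shows the opposite order.

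Clock repressors split by direction. Of 10 measured members, 4 fell and 1 rose, with a list median of -0.55. Nr1d1 (chromosome 11, 98767932 to 98775333), which encodes the Arntl repressor REV-ERBα, had 43.5, 45.9, 54.9 and 37.9 CPM under DRF ZT20 and 244, 296, 229 and 249 CPM under NRF ZT8. Its difference of -2.46 ± 0.12 (SE, adjusted p = 1.68e-05) was the largest fall among the genes named here, and the highest DRF ZT20 library remained far below the lowest NRF ZT8 library. Nr1d2, for REV-ERBβ, stood at 42.5, 42.96, 41.6 and 38.1 CPM against 115, 109, 151 and 115 CPM and differed by -1.54 ± 0.11 (SE, adjusted p = 0.000203). Ciart, which encodes a repressor of the CLOCK and BMAL1 pair, was scarce under DRF ZT20 with 0.917, 0.488, 0.588 and 0.637 CPM against 3.96, 2.94, 9.64 and 2.38 CPM, a difference of -1.64 ± 0.30 (SE, adjusted p = 0.0142) that was not called without DRF ZT20 replicate 2 (adjusted p = 0.0566). Bhlhe41 (DEC2), which competes for E-boxes, had 8.73, 7.74, 13.2 and 7.86 CPM against 27.9, 33.7, 53.6 and 21.5 CPM, and differed by -1.71 ± 0.25 (SE, adjusted p = 0.00672). In all 4 genes the groups were apart. Cry1 went the other way, with 21.8, 24.5, 21.03 and 20.8 CPM under DRF ZT20 and 6.83, 6.13, 9.62 and 7.79 CPM under NRF ZT8, and differed by 1.44 ± 0.13 (SE, adjusted p = 0.000556). The remaining repressors were not called. Per1 measured 46.4, 47.6, 46.2 and 49.98 CPM against 56.8, 59.9, 51.3 and 78.96 CPM, all 4 DRF values below the 4 of NRF, with a difference of -0.35, 95% confidence interval -0.62 to -0.08, which was called with plain totals (adjusted p = 0.036). It was also called with replicate number as a block (adjusted p = 0.0476) and without NRF ZT8 replicate 3 (adjusted p = 0.0315). Per2 lay at 29.8, 22.2, 20.1 and 24.8 CPM against 16.8, 13.3, 24.1 and 11.8 CPM and the groups overlapped, with a difference of 0.56, 95% confidence interval 0.12 to 1.00. Without NRF ZT8 replicate 3 Per2 was called (0.75, adjusted p = 0.0113), and the list had 2 higher and 5 lower calls. Per3 (-0.42, 95% confidence interval -0.97 to 0.13), Cry2 (0.12, 95% confidence interval -0.14 to 0.37) and Bhlhe40 (-0.67, 95% confidence interval -1.35 to 0.00) overlapped between groups as well. Bhlhe40 was called with replicate number as a block (adjusted p = 0.0333). Exons of Nr1d1 overlap those of Thra on the opposite strand, the library kit does not mark strand, and Thra itself differed by -0.62, so that reads of the shared stretch cannot be assigned between them.

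Ciart, Cry1 and Nr1d2 were picked among the called repressors because their windows hold a clock motif, and the bases from 250 to 31 before their start sites are shown to set the motifs beside these values (RefSeq, GRCm38.p6, written 5′ to 3′ on the strand of the gene). Capitals mark the E-box CACGTG, which reads the same on both strands, and AGGTCA, the core of the element bound by REV-ERB and ROR proteins, searched on both strands.
Ciart (chr3:95882259-95882478, minus strand): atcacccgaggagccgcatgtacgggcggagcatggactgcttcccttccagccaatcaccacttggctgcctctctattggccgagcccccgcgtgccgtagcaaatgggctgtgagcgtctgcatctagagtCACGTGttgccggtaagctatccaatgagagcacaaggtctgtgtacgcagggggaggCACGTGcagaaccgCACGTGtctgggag
Cry1 (chr10:85185085-85185304, minus strand): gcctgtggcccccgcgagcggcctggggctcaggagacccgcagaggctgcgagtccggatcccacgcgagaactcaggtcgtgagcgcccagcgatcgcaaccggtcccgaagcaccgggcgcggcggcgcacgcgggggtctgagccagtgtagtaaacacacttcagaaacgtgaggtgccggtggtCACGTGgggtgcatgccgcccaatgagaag
Nr1d2 (chr14:18239137-18239356, minus strand): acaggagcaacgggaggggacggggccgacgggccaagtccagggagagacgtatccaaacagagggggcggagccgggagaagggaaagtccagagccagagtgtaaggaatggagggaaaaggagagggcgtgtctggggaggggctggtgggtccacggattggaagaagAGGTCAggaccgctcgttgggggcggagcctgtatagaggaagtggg
The Ciart window held 3 E-boxes, the first bases of which lie 116, 58 and 44 bases before the start, and the Cry1 window held 1, at 60 bases. Ciart, which fell, and Cry1, which rose, thus both carried the letters CACGTG, which occurred in 5.01% of 32851 RefSeq promoter windows of this length. The Nr1d2 window held 1 AGGTCA, at 77 bases before the start, a sequence found in 12.5% of windows. Of the 8 repressors with a RefSeq window, 4 held CACGTG (Ciart, Cry1, Bhlhe41 and the uncalled Per1) and 2 held AGGTCA (Nr1d2 and Per1). Per1 has more than 1 window, so these shares of genes and the shares of windows are unlike measures. The window of Nr1d1, the largest fall, held neither. The bases after its start were not found in a GENCODE M21 transcript of the gene, unlike those of Ciart, Cry1 and Nr1d2. A match of letters is a description of the window, and no binding was measured.

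Clock output genes rose and fell in nearly equal number, 5 higher and 3 lower of 11 measured, with a median of -0.10. The PAR bZIP factors, which activate D-box genes, were lower under DRF ZT20. Dbp (chromosome 7, 45705088 to 45710203) had 28.2, 30.03, 33.5 and 38.9 CPM against 156, 186, 228 and 143 CPM, groups far apart, and differed by -2.40 ± 0.15 (SE, adjusted p = 8.38e-05). Hlf lay at 10.6, 13.1, 10.9 and 15.98 CPM against 22.1, 24.04, 31.1 and 22.3 CPM, also without overlap (difference -0.93 ± 0.15, adjusted p = 0.00898). Tef, at 141 to 161 CPM against 204 to 292 CPM, differed less, by -0.57 ± 0.12 (SE, adjusted p = 0.0243), and was not called without DRF ZT20 replicates 2 or 3 or NRF ZT8 replicate 1 (adjusted p = 0.0577 to 0.0801). Nfil3, whose product represses the same D-box genes, was higher, with 10.04, 13.2, 11.9 and 8.89 CPM against 3.68, 3.28, 3.27 and 4.59 CPM and a difference of 1.35 ± 0.14 (SE, adjusted p = 0.00136). Dbp and Nfil3, activator and repressor of 1 element, therefore moved in opposite directions, with no overlap of groups in either. Nampt, the rate-limiting enzyme of NAD salvage, lay at 159.6 to 207 CPM under DRF ZT20 against 81.9 to 131 CPM under NRF ZT8 (difference 0.90 ± 0.14, adjusted p = 0.00871), and the scarce Lonrf3 at 2.03 to 3.93 against 0.381 to 0.869 CPM (difference 1.19 ± 0.17, adjusted p = 0.00593). Wee1, a kinase that restrains mitosis, differed by 0.86 ± 0.17 (SE, adjusted p = 0.0172) and was not called without DRF ZT20 replicate 2 or NRF ZT8 replicates 1 or 4 (adjusted p = 0.0508 to 0.0668). Pm20d1, which makes N-acyl amino acids, differed by 1.08 ± 0.24 (SE, adjusted p = 0.0246) and was not called without DRF ZT20 replicates 2, 3 or 4 or NRF ZT8 replicate 4 (adjusted p = 0.0584 to 0.0856). Usp2 (-0.16, 95% confidence interval -0.59 to 0.27), Tspan4 (-0.10, 95% confidence interval -0.37 to 0.17) and Por (-0.33, 95% confidence interval -0.60 to -0.07) were not called, though Por was with plain totals (adjusted p = 0.0222). Exons of Dbp overlap those of Sphk2 on the opposite strand, and Sphk2 differed by 0.73 in the direction opposite to Dbp.

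The same difference in zeitgeber time was also taken in fed mice, NRF ZT20 minus DRF ZT8, in libraries not used above. The SEs and adjusted p-values of this fed pair come from a fit that also held the fasted pair. Of the 16 clock genes called in the fasted pair, 13 had the same sign there and 3 the opposite sign. Nr1d1 differed there by -3.64 ± 0.15 (SE, adjusted p = 7.53e-10), Nr1d2 by -2.91 ± 0.13 (adjusted p = 1.51e-09), Dbp by -2.68 ± 0.17 (adjusted p = 2.36e-07), Cry1 by 1.42 ± 0.14 (adjusted p = 8.94e-05) and Arntl by 0.72 ± 0.15 (adjusted p = 0.036). These 5 had the sign of the fasting-aligned pair, and regimen and zeitgeber time change together in the fed pair as well. The sizes were unequal. Nr1d1 and Nr1d2 differed less in fasted than in fed mice, by 1.18 ± 0.21 (adjusted p = 0.021) and 1.38 ± 0.18 (adjusted p = 0.00608) as a difference of differences, and Arntl differed more, by 1.27 ± 0.21 (adjusted p = 0.0151). For Dbp the difference of differences was 0.28 ± 0.24 (adjusted p = 0.638) and for Cry1 0.02 ± 0.20 (adjusted p = 0.981), neither called. Levels of Nr1d1 in the 4 groups ran from 4.11 to 4.82 CPM under NRF ZT20, through 37.9 to 54.9 CPM under DRF ZT20 and 46.3 to 78.1 CPM under DRF ZT8, to 229 to 296 CPM under NRF ZT8. The values of the 2 DRF groups overlapped, and those of the 2 NRF groups lay at the ends. Dbp had the same order, at 6.09 to 11.5, 28.2 to 38.9, 48.1 to 63.5 and 143 to 228 CPM, with no overlap between neighbouring groups. The 3 genes of opposite sign were Wee1 (-0.26 ± 0.25 in the fed mice, adjusted p = 0.725), Pm20d1 (-0.31 ± 0.23, adjusted p = 0.622) and Bhlhe41 (0.53 ± 0.28, adjusted p = 0.461). For Bhlhe41 the difference of differences was -2.24 ± 0.40 (adjusted p = 0.0209), not called without DRF ZT20 replicate 2 or NRF ZT20 replicates 1 or 3 (adjusted p = 0.0553 to 0.0566). Without DRF ZT8 replicate 1, the fed differences of Nr1d1 (-3.82 ± 0.11), Nr1d2 (-2.84 ± 0.13), Dbp (-2.76 ± 0.18), Cry1 (1.39 ± 0.15) and Arntl (0.58 ± 0.13, adjusted p = 0.0453) were still called, as were the differences of differences of Nr1d1 (1.36 ± 0.15), Nr1d2 (1.30 ± 0.18), Arntl (1.41 ± 0.18) and Bhlhe41 (-2.12 ± 0.40). Without that library Pm20d1 (1.56 ± 0.30, adjusted p = 0.0145) and Nampt (0.81 ± 0.20, adjusted p = 0.0342) were called as well, and the sign of Wee1 in the fed pair changed (0.05 ± 0.17), so that 14 of the 16 had the same sign.

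**Figure D2:**
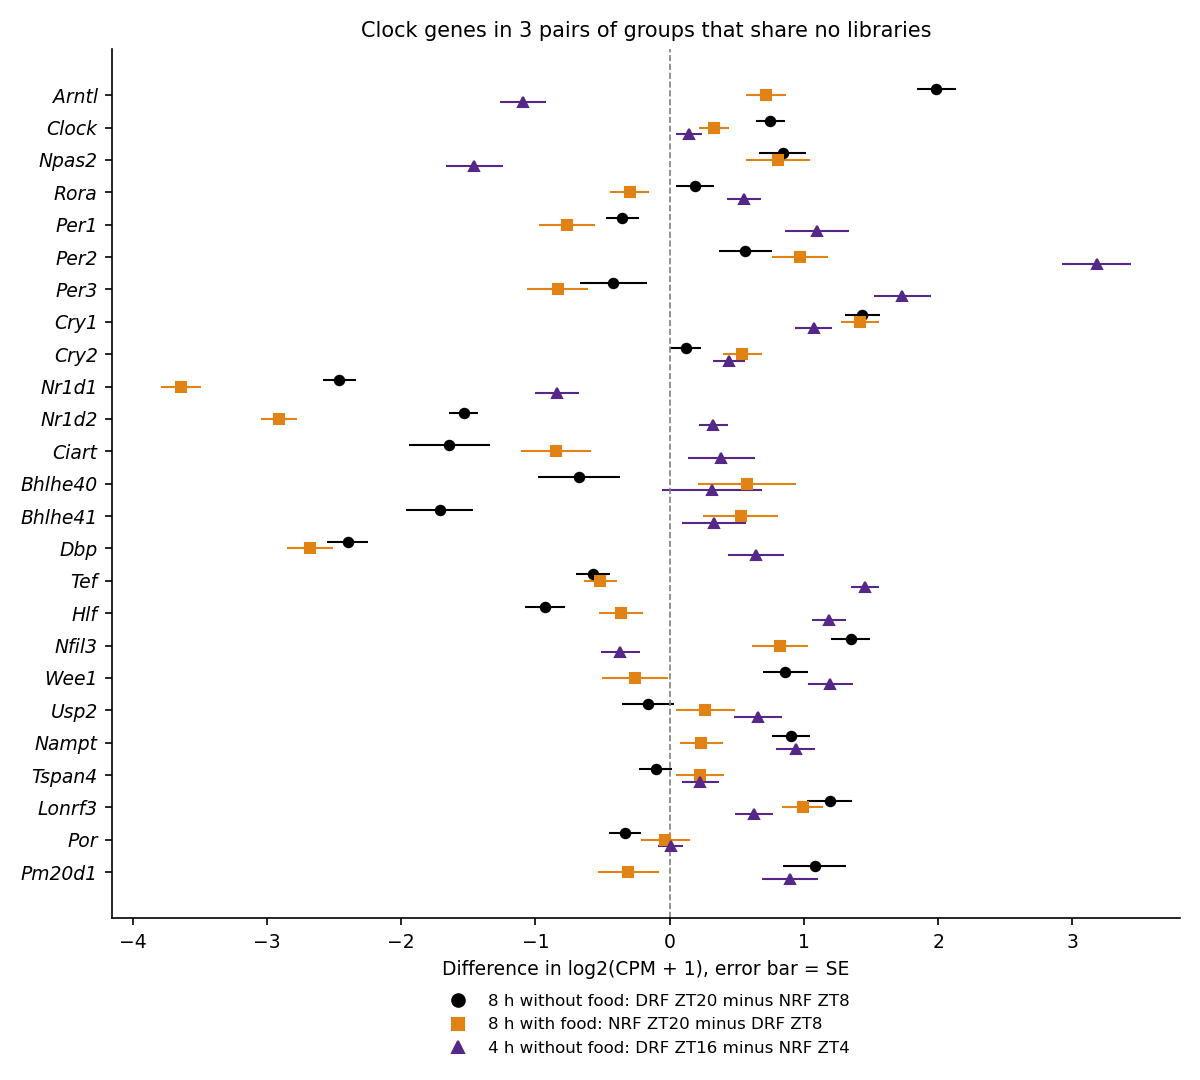
Difference in log2(CPM + 1) with its SE for 25 clock genes in 3 pairs of groups with no library in common: 8 h without food (DRF ZT20 minus NRF ZT8), 8 h with food (NRF ZT20 minus DRF ZT8) and 4 h without food (DRF ZT16 minus NRF ZT4). Nr1d1, Nr1d2, Dbp and Cry1 lie on the same side in the 8-h pairs, whereas Arntl, Npas2, Tef and Hlf change side between 4 h and 8 h without food.

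Clock genes were also compared between 4 h and 8 h without food. After 4 h without food, DRF ZT16 minus NRF ZT4, Arntl differed by -1.09 ± 0.17 (SE), against 1.99 at 8 h, and the change between the 4-h and the 8-h pair was 3.08 ± 0.24 (adjusted p = 3.58e-06). Dbp went from 0.64 ± 0.21 to -2.40, a change of -3.04 ± 0.29 (adjusted p = 3.4e-05), Tef from 1.46 ± 0.10 to -0.57 (-2.03 ± 0.14, adjusted p = 2.02e-06), Hlf from 1.19 ± 0.13 to -0.93 (-2.12 ± 0.18, adjusted p = 8.83e-06) and Nfil3 from -0.37 ± 0.15 to 1.35 (1.72 ± 0.21, adjusted p = 0.000647). All 5 thus had opposite signs at the 4-h and 8-h pairs. Per2 (-2.62 ± 0.36, adjusted p = 0.00251) and Per3 (-2.15 ± 0.30, adjusted p = 0.00251) differed by 3.18 ± 0.26 and 1.73 ± 0.21 at 4 h and were not called at 8 h. Of 15696 genes, 41 (0.261%) passed this test, 14 (0.0892%) with a change upward and 27 (0.172%) downward, and 12 of them were members of the 3 clock lists: 2 of 5 activators, 6 of 10 repressors and 4 of 11 outputs. The count was 31 without NRF ZT8 replicate 4, 24 without DRF ZT16 replicate 1 or replicate 3, 23 without NRF ZT4 replicate 4 and 19 without DRF ZT20 replicate 4. Among genes outside the clock lists, G0s2, an inhibitor of adipose triglyceride lipase, changed by 1.45 ± 0.22 (adjusted p = 0.00673), Axin2, a target of Wnt signalling, by 0.93 ± 0.13 (adjusted p = 0.00305), Dtx4, a ubiquitin ligase of the Deltex family, by 0.92 ± 0.13 (adjusted p = 0.00251) and Jpt2 by 0.88 ± 0.17 (adjusted p = 0.0331). Jpt2 was not called without DRF ZT16 replicates 1, 2 or 3 or DRF ZT20 replicates 3 or 4 or NRF ZT4 replicates 1 or 4 or NRF ZT8 replicates 1 or 4 (adjusted p = 0.0614 to 0.0844) or with no filter (adjusted p = 0.0512). With all 56 libraries in 1 fit, Dtx4 (adjusted p = 0.191), Jpt2 (adjusted p = 0.15) and the change of Bhlhe41 (-2.04, adjusted p = 0.0565) were not called. Over all genes, 776 of the 1480 genes called at 8 h were among the 2757 called at 4 h, and 763 of those 776 had the same sign. The 4-h calls come from a fit that also held the 8-h pair, so these counts are not from matched fits.

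**Figure D3:**
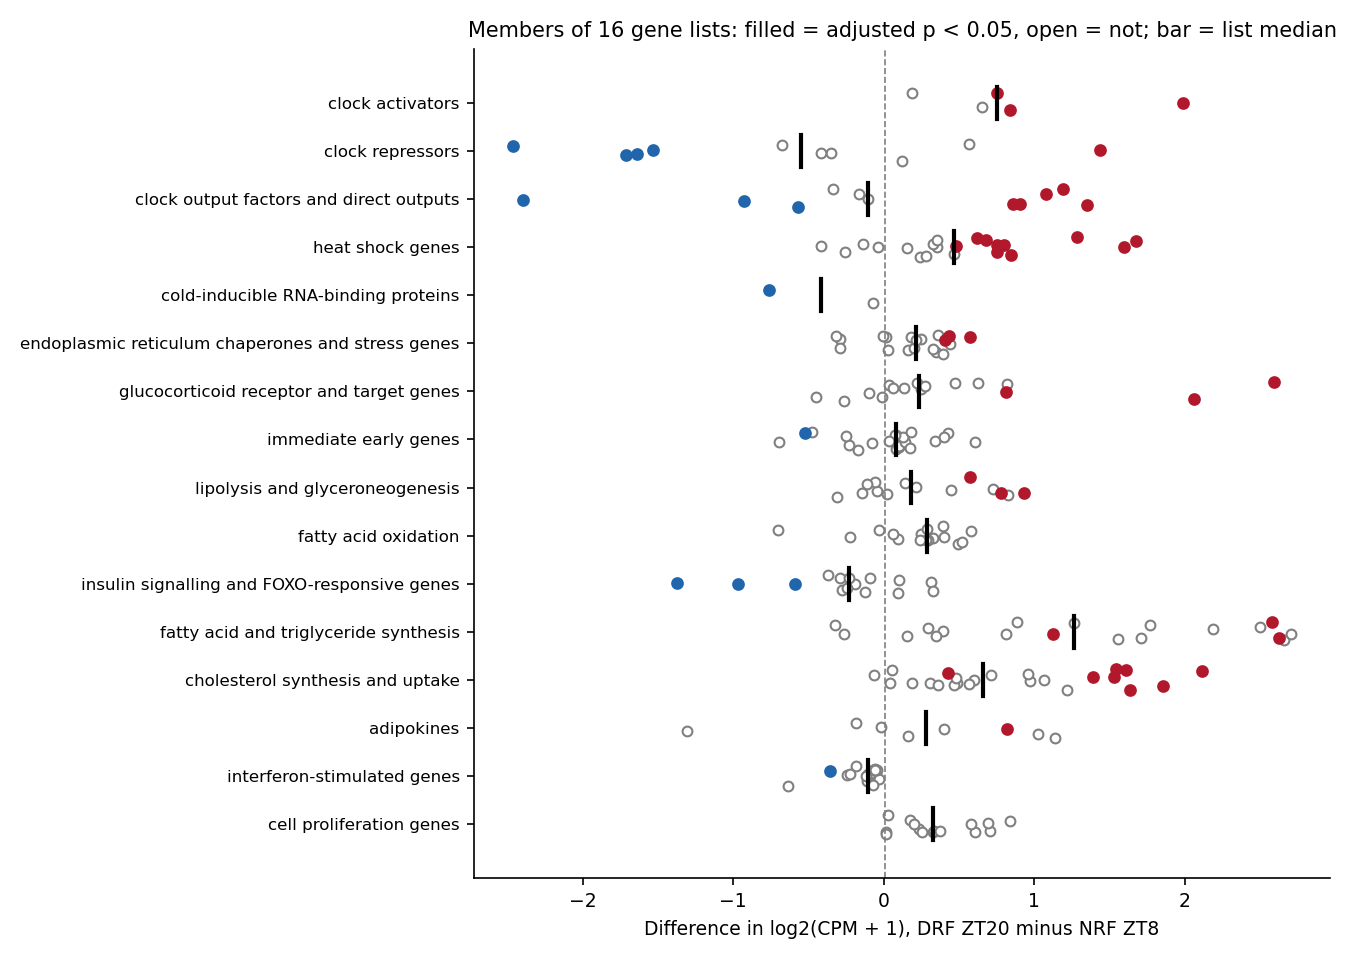
Difference in log2(CPM + 1), DRF ZT20 minus NRF ZT8, for every tested member of 16 gene lists, 1 circle per gene. Filled circles passed an adjusted p of 0.05 (red higher, blue lower under DRF ZT20), open circles did not, the bar marks the list median and the dashed line the median of all genes at 0.01; the clock repressors hold called members on both sides, whereas the called heat shock and cholesterol genes all lie to the right.

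Heat shock genes, the chaperones and cochaperones induced by HSF1, were higher under DRF ZT20 in 10 of 21 members and lower in none, with a median of 0.47. Hsph1 (chromosome 5, 149614287 to 149636376), a nucleotide exchange factor of HSP70, had 45.8, 53.7, 72.7 and 38.5 CPM against 12.98, 12.8, 22.2 and 14.8 CPM and differed by 1.68 ± 0.21 (SE, adjusted p = 0.00337). Cryab, a small heat shock protein, had 119, 220.3, 239 and 142 CPM against 52.6, 47.8, 67.6 and 59.9 CPM (difference 1.60 ± 0.21, adjusted p = 0.00455), and Hspa4l, a relative of Hsph1, 48.7, 64.3, 81.1 and 44.4 CPM against 24.2, 16.9, 31.99 and 22.1 CPM (difference 1.28 ± 0.21, adjusted p = 0.0102). In these 3 genes no DRF ZT20 library was as low as any NRF ZT8 library, and each was called in all 8 fits that left out 1 library. Hsp90aa1, the inducible HSP90, lay at 251 to 448 CPM against 143 to 218 CPM (difference 0.85 ± 0.20, adjusted p = 0.0306) and was not called without DRF ZT20 replicates 2 or 3 or NRF ZT8 replicates 1, 2 or 4 (adjusted p = 0.0548 to 0.0951). The others past the threshold were Hspb1 (0.80), Ahsa1 (0.75), Stip1 (0.75), Chordc1 (0.68), Hspd1 (0.62) and Dnaja1 (0.48). Of the abundant members that were not called, Hsp90ab1 differed by 0.33, 95% confidence interval -0.03 to 0.69, and Hspa8 by 0.35, 95% confidence interval -0.09 to 0.79. The strongly heat-inducible Hspa1a (1.62 to 3.61 against 3.03 to 5.14 CPM) and Hspa1b (8.17 to 10.2 against 8.72 to 14.2 CPM), near-identical copies whose reads may be split, were not called either. The number of called members fell to 4 without NRF ZT8 replicate 4, 3 without DRF ZT20 replicate 2, 4 without DRF ZT20 replicate 3 and 5 without NRF ZT8 replicate 1, and was between 7 and 12 without any other library. It was 6 with no filter. In the fed pair, Hsph1 differed by 1.65 ± 0.20 (adjusted p = 0.000838) and Hspa4l by 1.19 ± 0.20 (adjusted p = 0.0109), the same sign as ZT20 minus ZT8 in fasted mice, whereas Cryab differed by -0.17 ± 0.33 (adjusted p = 0.887). None of the 21 passed the test of a difference between the fasted and fed pairs, but Cryab did without DRF ZT8 replicate 1 (2.10 ± 0.39, adjusted p = 0.0123).

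The window of Hspb1, the small heat shock protein HSP27, is shown because it holds matches to GAANNTTC, letters that form part of the heat shock element. It spans bases 250 to 31 before the start (RefSeq, GRCm38.p6), and capitals mark GAANNTTC, which reads the same on both strands.
Hspb1 (chr5:135887669-135887888, plus strand): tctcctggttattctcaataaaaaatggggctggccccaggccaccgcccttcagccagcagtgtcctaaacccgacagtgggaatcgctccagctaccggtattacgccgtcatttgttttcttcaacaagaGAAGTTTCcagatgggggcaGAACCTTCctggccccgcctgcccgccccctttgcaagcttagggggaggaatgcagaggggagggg
The 2 matches begin 117 and 97 bases before the start. Hspb1 lay at 88.4, 129, 136 and 78.6 CPM under DRF ZT20 and 52.2, 83.2, 50.7 and 58.7 CPM under NRF ZT8, where the lowest DRF library, 78.6 CPM, was below the highest NRF library, 83.2 CPM. GAANNTTC or its other phase TTCNNGAA occurred in 11.2% of the 32851 windows. It occurred in windows of 8 of the 16 heat shock genes with a RefSeq window, called and not called alike. Some of these genes have several windows, so a share of genes and a share of windows are unlike measures. Hspd1 and Hspe1 share the stretch that holds their matches, and the windows of Hspa1a and Hspa1b are near copies. These matches of letters describe the windows, and no binding was measured.

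**Figure D4:**
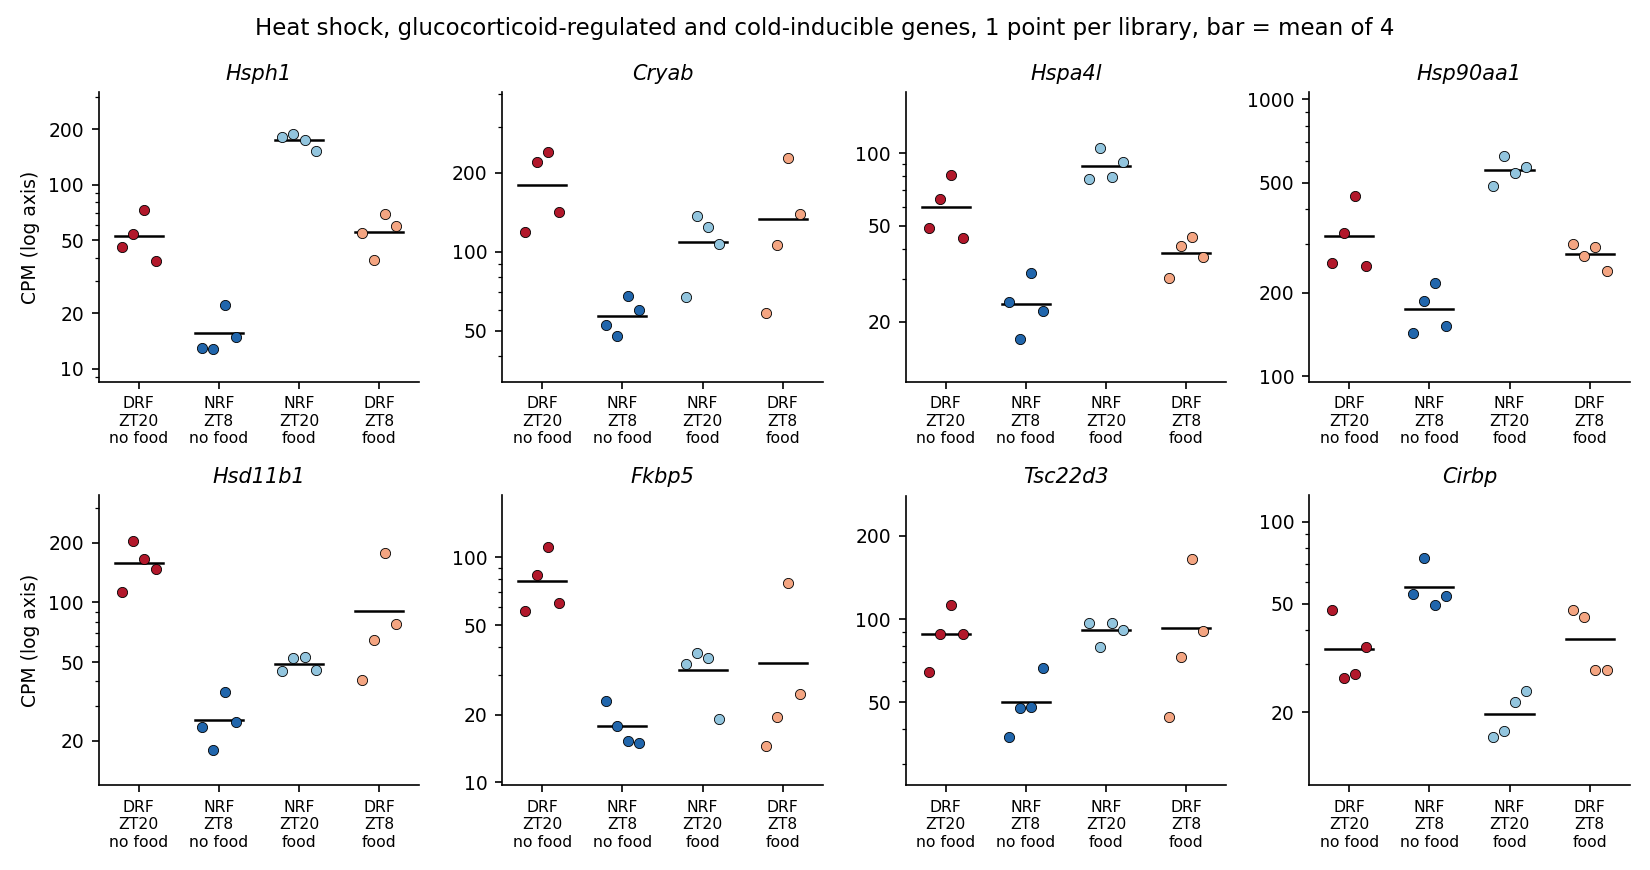
Level in CPM on a log axis of 4 heat shock genes (upper row) and of Hsd11b1, Fkbp5, Tsc22d3 and Cirbp (lower row), 1 point per library and a bar at the mean of 4, in the fasting-aligned and the fed pair. Hsph1 reaches its highest values under NRF ZT20 and its lowest under NRF ZT8, whereas Hsd11b1 and Fkbp5 have their highest group mean under DRF ZT20.

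Of the cold-inducible RNA-binding proteins, whose transcripts fall as temperature rises, Cirbp had 47.2, 26.7, 27.7 and 34.7 CPM under DRF ZT20 and 54.1, 73.3, 49.5 and 53.4 CPM under NRF ZT8 and differed by -0.76 ± 0.18 (SE, adjusted p = 0.0324), a call lost without DRF ZT20 replicates 2, 3 or 4 or NRF ZT8 replicates 1, 2 or 4 (adjusted p = 0.0618 to 0.109). Rbm3 did not follow: its values of 76.7 to 84.5 CPM and 72.2 to 92.5 CPM overlapped, with a difference of -0.07, 95% confidence interval -0.28 to 0.14. In fed mice Rbm3 differed by -0.72 ± 0.10 (adjusted p = 0.00158), and the fasted and fed differences were unequal (adjusted p = 0.0371). Chaperones of the endoplasmic reticulum were higher in 3 of 19 members and lower in none, where 5.1% of all genes were higher, with a median of 0.21. With all 56 libraries in 1 fit 8 members were higher. Hspa5 (BiP) lay at 307, 433, 355 and 326 CPM against 228, 227, 234 and 259.6 CPM, groups apart, and differed by 0.57 ± 0.12 (SE, adjusted p = 0.0236). Dnajb11 differed by 0.44 ± 0.10 (SE, adjusted p = 0.0292) and Hyou1 by 0.40 ± 0.08 (SE, adjusted p = 0.0199). The list had no called member without NRF ZT8 replicate 4, DRF ZT20 replicate 2 or DRF ZT20 replicate 3, 1 without NRF ZT8 replicate 1 or replicate 2, and 5 without DRF ZT20 replicate 1, and scaling by plain totals added 1 lower call here and in the lists of glucocorticoid, fatty acid synthesis and adipokine genes. Calr (0.18, 95% confidence interval -0.13 to 0.48) and Pdia3 (0.01, 95% confidence interval -0.27 to 0.30) were not called.

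Glucocorticoids peak at the onset of activity in rodents and act on adipocytes through the glucocorticoid receptor. Among 16 genes of this axis, 3 were higher under DRF ZT20 and none lower, where 5.1% of all genes were higher, with a median of 0.23. Without DRF ZT20 replicate 1 there were 5. Hsd11b1 (chromosome 1, 193221634 to 193264075), the enzyme that regenerates active corticosterone inside cells, had 113, 204, 166 and 148 CPM against 23.6, 17.9, 35.4 and 24.9 CPM. The groups were separate by a wide margin, and the difference of 2.59 ± 0.21 (SE, adjusted p = 0.000307) was called in all 8 fits that left out 1 library. Fkbp5, a feedback inhibitor of the receptor, had 57.5, 83.5, 111 and 62.6 CPM against 23.00, 17.8, 15.3 and 14.9 CPM and differed by 2.06 ± 0.20 (SE, adjusted p = 0.000922), also in all 8 fits. Tsc22d3 (GILZ) had 64.3, 88.4, 112 and 88.4 CPM against 37.6, 47.6, 48.1 and 66.8 CPM, where DRF ZT20 replicate 1 lay within the NRF range. Its difference of 0.81 ± 0.19 (SE, adjusted p = 0.0305) was not called without DRF ZT20 replicates 2, 3 or 4 or NRF ZT8 replicates 1 or 2 (adjusted p = 0.0644 to 0.0996). Other targets were not called, among them Mt1, a metallothionein, at 0.82, 95% confidence interval 0.25 to 1.38, and Klf9 at -0.26, 95% confidence interval -0.49 to -0.04, which was called with plain totals (adjusted p = 0.0191). Mt1 was called with replicate number as a block (adjusted p = 0.0209) and without DRF ZT20 replicate 1 (adjusted p = 0.0123). In the fed pair Hsd11b1 differed by -0.67 ± 0.32 (adjusted p = 0.417) and Fkbp5 by 0.16 ± 0.38 (adjusted p = 0.912). The difference of differences was 3.26 ± 0.45 (adjusted p = 0.007) for Hsd11b1 and 1.90 ± 0.53 (adjusted p = 0.113) for Fkbp5, which was 2.18 ± 0.49 and called without DRF ZT8 replicate 1 (adjusted p = 0.0264). Immediate early genes, which respond within minutes to stimulation or handling, had 1 lower member of 21 and none higher, where 4.33% of all genes were lower. With all 56 libraries in 1 fit the list had 1 higher and none lower. The lower member, Myc, had 13.5, 11.3, 10.9 and 10.9 CPM against 14.3, 20.99, 14.2 and 20.2 CPM (difference -0.52 ± 0.14, adjusted p = 0.0484) and was not called without DRF ZT20 replicates 2, 3 or 4 or NRF ZT8 replicates 1, 2 or 4 (adjusted p = 0.062 to 0.141), with voom weights (adjusted p = 0.0552) or with all 56 libraries (adjusted p = 0.0665). Klf2 (0.04, 95% confidence interval -0.32 to 0.39) and Klf6 (0.40, 95% confidence interval 0.08 to 0.72) were not called. Klf6 was called with all 56 libraries (adjusted p = 0.0497) and with replicate number as a block (adjusted p = 0.0207). It was also called without DRF ZT20 replicate 1 (adjusted p = 0.0419) or NRF ZT8 replicate 3 (adjusted p = 0.0371). Without NRF ZT8 replicate 3 the list had 2 higher and 1 lower.

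Genes of fatty acid and triglyceride synthesis spread widely between the NRF ZT8 libraries. The list median was 1.27, yet 3 of 19 members passed the test, all higher under DRF ZT20. Fasn, fatty acid synthase, had 25813, 26139, 31571 and 20228 CPM under DRF ZT20 and 16887, 971, 32188 and 7125 CPM under NRF ZT8. Acly, which supplies cytosolic acetyl-CoA, had 5137, 6113, 7939 and 2849.5 CPM and 1380.5, 154, 6511 and 321 CPM. In both genes NRF ZT8 replicate 3 lay at or above the middle of the DRF ZT20 values, and replicates 2 and 4 lay far below every DRF ZT20 library. Fasn was not called, with a difference of 1.71, 95% confidence interval -0.45 to 3.87, nor was Acly, at 2.66, 95% confidence interval 0.56 to 4.76. Thrsp, a lipogenic nuclear protein, had 4333, 6639.9, 6953 and 4044 CPM against 2070.3, 552, 3789.7 and 1369.9 CPM and missed the threshold at 1.77 ± 0.51 (SE, adjusted p = 0.0547), but was called with a filter of 5 CPM (adjusted p = 0.0445) and without NRF ZT8 replicate 3 (adjusted p = 0.0103). Among the called members, Scd2, a stearoyl-CoA desaturase, had 723, 992, 1454 and 468 CPM against 132, 56.3, 596 and 83.2 CPM (difference 2.58 ± 0.62, adjusted p = 0.0336), where DRF ZT20 replicate 4 lay below NRF ZT8 replicate 3. Mogat2, a monoacylglycerol acyltransferase, had 22.4, 50.5, 60.97 and 22.02 CPM against 4.75, 1.35, 21.1 and 2.95 CPM (difference 2.63 ± 0.60, adjusted p = 0.0283), and Acacb, the acetyl-CoA carboxylase of mitochondria, 604, 674, 847 and 462 CPM against 424, 147, 392 and 285 CPM (difference 1.13 ± 0.31, adjusted p = 0.0476). All 3 calls were lost without NRF ZT8 replicate 4, DRF ZT20 replicate 2, DRF ZT20 replicate 3, NRF ZT8 replicate 1 or NRF ZT8 replicate 2. Acacb was also lost without DRF ZT20 replicate 1 (adjusted p = 0.0591) or replicate 4 (adjusted p = 0.0575), and passed in 1 of the 8 fits that left out 1 library. In all, 12 members were called without NRF ZT8 replicate 3. All 3 were also lost with all libraries kept, under robust empirical Bayes (adjusted p = 0.0541 to 0.0744) and with no filter, and Acacb also with plain totals (adjusted p = 0.0622) and voom weights (adjusted p = 0.0524). With all 56 libraries in 1 fit 12 members were called, Fasn (adjusted p = 0.0465) and Thrsp (adjusted p = 0.00536) among them. Scd1, the main desaturase of adipose tissue, could not be recovered as reads and was left out.

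**Figure D5:**
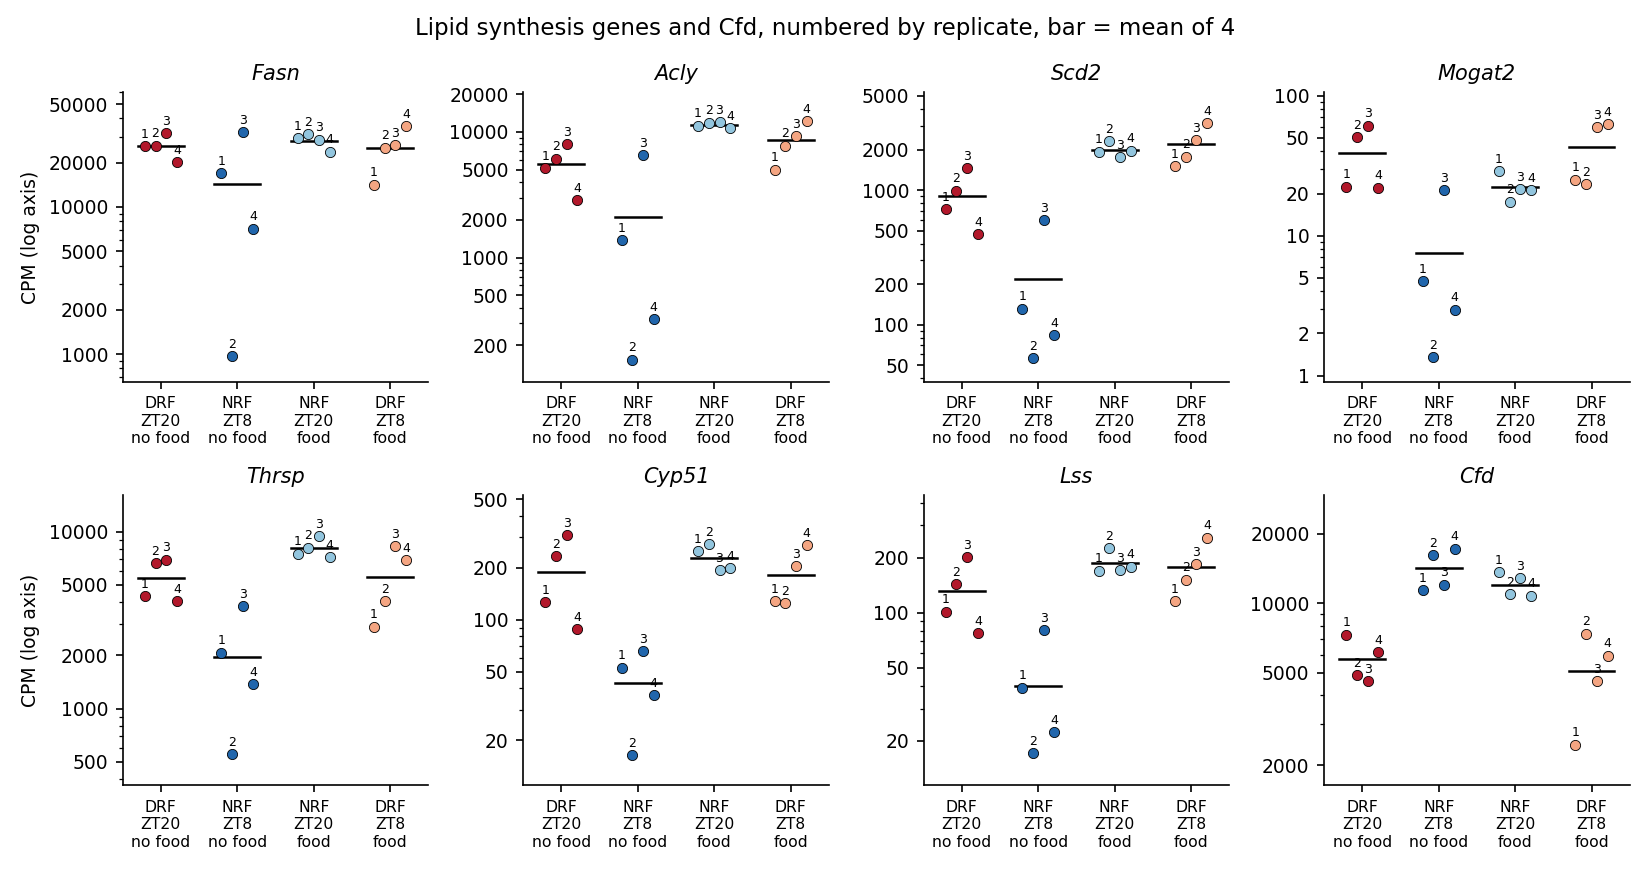
Level in CPM on a log axis of 5 lipogenic genes, 2 genes of cholesterol synthesis and Cfd, with each point marked by its replicate number and a bar at the arithmetic mean of 4. NRF ZT8 replicate 3 stays near the other groups in Fasn and Acly while replicates 2 and 4 drop. In both genes the 4 libraries of DRF ZT20 lie closer together than those of NRF ZT8.

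Cholesterol synthesis and uptake followed with 8 of 24 members higher, none lower and a median of 0.66. Cyp51, lanosterol demethylase, had 127, 234, 308 and 88.3 CPM against 52.7, 16.5, 66.01 and 36.4 CPM (difference 2.11 ± 0.45, adjusted p = 0.0223). Lss, lanosterol synthase, had 102, 144, 201 and 77.2 CPM against 39.1, 17.1, 80.1 and 22.3 CPM (difference 1.85 ± 0.43, adjusted p = 0.0301), with DRF ZT20 replicate 4 below NRF ZT8 replicate 3. Pmvk, phosphomevalonate kinase, had 118, 169, 186 and 109 CPM against 51.8, 24.5, 78.1 and 40.6 CPM (difference 1.64 ± 0.30, adjusted p = 0.0147), and Idi1, isopentenyl-diphosphate isomerase, 33.9, 51.9, 64.9 and 28.6 CPM against 13.1, 8.33, 29.3 and 9.41 CPM (difference 1.61 ± 0.36, adjusted p = 0.0265). Nsdhl (1.54), Acat2 (1.39) and Ebp (0.43) were also higher. The sterol sensor partner Insig1 (0.72, 95% confidence interval -0.20 to 1.63) and Sc5d (0.48, 95% confidence interval -0.09 to 1.06) were not called. Without replicate 4 of NRF ZT8, Pmvk alone was past the threshold (adjusted p = 0.0447). No member passed without DRF ZT20 replicate 2 or 3, 3 passed without NRF ZT8 replicate 1 or 2, and 13 passed without NRF ZT8 replicate 3. With all libraries kept, 4 passed under robust empirical Bayes, which ended the calls of Cyp51 (adjusted p = 0.0517), Lss (adjusted p = 0.0646) and Idi1 (adjusted p = 0.0522), and 3 with no filter.

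Of 14 genes of lipolysis and of glycerol synthesis from pyruvate, 3 were higher under DRF ZT20 and none lower, with a median of 0.18. Angptl4, an inhibitor of lipoprotein lipase that rises on fasting, had 482, 608, 579 and 631 CPM against 316, 358, 184 and 383 CPM without overlap (difference 0.93 ± 0.21, adjusted p = 0.0292). G0s2 had 135, 227, 218 and 215 CPM against 99.3, 129.6, 95.6 and 131 CPM (difference 0.78 ± 0.18, adjusted p = 0.0283), and Abhd5 (CGI-58), the coactivator of the lipase that G0s2 inhibits, 187, 262, 247 and 202 CPM against 165, 120.1, 141 and 177 CPM (difference 0.57 ± 0.15, adjusted p = 0.0413). An inhibitor and a coactivator of the same lipase were thus both higher. The list kept 1 called member, Angptl4, without NRF ZT8 replicate 4, none without DRF ZT20 replicates 2, 3 or 4 or NRF ZT8 replicate 1, and 2 without NRF ZT8 replicate 2. It held no called member with no filter, and Abhd5 was also lost with plain totals (adjusted p = 0.0535). The lipase itself, Pnpla2 (ATGL), had 2848, 3418, 3032 and 3072 CPM against 2416, 3128, 2148 and 3078 CPM, overlapping, with a difference of 0.21, 95% confidence interval -0.32 to 0.75. Pck1, which feeds glyceroneogenesis, had 1405 to 2976 CPM against 932 to 3276 CPM and a difference of -0.06, 95% confidence interval -0.94 to 0.82.

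No gene of fatty acid oxidation was called among 16 tested. Their median was 0.28, and the lowest adjusted p in the list was 0.052. Acadl, among the most abundant, differed by 0.10, 95% confidence interval -0.31 to 0.50. The list had 6 higher calls without DRF ZT20 replicate 1 and 2 lower calls without NRF ZT8 replicate 3. With all libraries kept it had 4 higher calls in 1 fit of all 56 libraries, and 1 each with median-of-ratios size factors and with a filter of 5 CPM. Insulin signalling and FOXO-responsive genes, several of which rise on fasting, were lower under DRF ZT20 in 3 of 15 members and higher in none, with a median of -0.23. With plain totals 5 were lower, as also without NRF ZT8 replicate 3, and 1 was lower without DRF ZT20 replicate 2 or replicate 3. Pik3ip1, an inhibitor of PI3 kinase, had 12.5, 9.54, 9.32 and 12.3 CPM against 31.2, 43.04, 15.8 and 36.5 CPM (difference -1.38 ± 0.26, adjusted p = 0.0148), not called without DRF ZT20 replicates 2 or 3 (adjusted p = 0.0541 to 0.0588). Fbxo32 (atrogin-1) had 32.7, 26.2, 19.6 and 19.96 CPM against 54.2, 47.3, 32.9 and 62.3 CPM (difference -0.96 ± 0.21, adjusted p = 0.0226), not called without DRF ZT20 replicates 2, 3 or 4 or NRF ZT8 replicates 1 or 4 (adjusted p = 0.0555 to 0.0803), and it is also expressed in skeletal muscle, whose markers were highest in NRF ZT8 replicate 4. Klf15, which is also a clock and glucocorticoid target, had 62.1, 74.7, 83.97 and 61.7 CPM against 99.95, 106, 109.7 and 107 CPM (difference -0.59 ± 0.11, adjusted p = 0.0148) and was called in all 8 fits that left out 1 library. Txnip (-0.23, 95% confidence interval -0.71 to 0.25) and Sesn1 (-0.27, 95% confidence interval -0.57 to 0.02) were not called, though Sesn1 was without NRF ZT8 replicate 3 (adjusted p = 0.0358).

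Of 8 adipokines tested, Rbp4, the plasma carrier of retinol, was called, with 644, 897, 804 and 878 CPM against 499, 308, 544 and 506 CPM (difference 0.82 ± 0.20, adjusted p = 0.0336). It was not called without DRF ZT20 replicates 2, 3 or 4 or NRF ZT8 replicates 1, 2 or 4 (adjusted p = 0.0532 to 0.107). Cfd (adipsin) had 7331, 4901, 4599 and 6159 CPM against 11409.8, 16097, 12037 and 17195 CPM. The groups did not overlap, but the difference of -1.31 ± 0.42 (SE, adjusted p = 0.0733) missed the threshold. Cfd was called by 5 alternatives that kept all libraries, at adjusted p = 0.0384 with plain totals, 0.0167 with a filter of 5 CPM, 0.0104 with voom weights, 0.00942 with robust empirical Bayes and 0.0019 with all 56 libraries. With all 56 libraries 3 adipokines were higher and 1, Cfd, lower. The level of DRF ZT8, 2451 to 7394 CPM, was also below that of NRF ZT20, 10791 to 13623 CPM. This fed difference, NRF ZT20 minus DRF ZT8, was not called, at 1.35 ± 0.47 (SE, adjusted p = 0.253). It was not called without DRF ZT8 replicate 1 either (1.03 ± 0.35, adjusted p = 0.18). Adipoq, adiponectin, differed by -0.19, 95% confidence interval -0.73 to 0.36. Interferon-stimulated genes had 1 lower call of 16, against 4.33% of all genes. All 16 estimates were below 0, with a median of -0.10. The called gene was Irf7, with 24.2, 24.4, 23.03 and 21.5 CPM against 31.5, 34.3, 27.2 and 27.8 CPM (difference -0.36 ± 0.10, adjusted p = 0.0465), lost without DRF ZT20 replicates 2, 3 or 4 or NRF ZT8 replicates 1, 2 or 4 (adjusted p = 0.0783 to 0.135) and with all 56 libraries in 1 fit (adjusted p = 0.315). Bst2 (-0.06, 95% confidence interval -0.31 to 0.19) and Ifit3 (-0.11, 95% confidence interval -0.44 to 0.22) were not called. None of 15 cell proliferation genes passed, and 1 did without DRF ZT20 replicate 1. All 15 estimates were above 0, with a median of 0.33, and the most abundant per length were Pcna, at 0.20, 95% confidence interval -0.01 to 0.42, and Ccnb2, at 0.03, 95% confidence interval -0.65 to 0.71, where NRF ZT8 replicate 3 was low at 1.18 CPM and the others lay between 3.67 and 4.27 CPM.

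Among genes ranked by size, which had to pass with and without NRF ZT8 replicate 4, keep the groups apart and average at least 5 CPM, the 12 largest rises held Arntl, Hsph1, Hsd11b1 and Fkbp5, described above, and 8 others. The rule required the groups to be apart, so the lack of overlap in these genes and in the ranked falls is no result. Hephl1, a copper-dependent ferroxidase, had 18.7, 35.8, 90.4 and 16.6 CPM under DRF ZT20 and 3.50, 0.381, 7.998 and 1.59 CPM under NRF ZT8 (difference 3.24 ± 0.60, adjusted p = 0.0148), and was not called without DRF ZT20 replicate 2 (adjusted p = 0.0585). Its levels in the fed groups, 77.1 to 105 CPM under NRF ZT20 and 52.7 to 134 CPM under DRF ZT8, were far above those of NRF ZT8. Cdkn1a (p21), an inhibitor of cyclin-dependent kinases, had 39.3, 49.8, 143 and 36.97 CPM against 11.3, 11.6, 8.38 and 15.1 CPM (difference 2.23 ± 0.37, adjusted p = 0.0101). In both genes DRF ZT20 replicate 3 was the highest library of its group. Podnl1, a leucine-rich proteoglycan, had 8.81, 16.2, 17.8 and 6.13 CPM against 1.05, 0.402, 3.14 and 0.67 CPM (difference 2.54 ± 0.37, adjusted p = 0.00675), and Ncan, the proteoglycan neurocan, 4.51, 10.9, 19.4 and 6.34 CPM against 0.606, 0.0846, 2.39 and 0.621 CPM (difference 2.50 ± 0.42, adjusted p = 0.0105). Within NRF ZT8, Hephl1, Podnl1 and Ncan were lowest in replicate 2 and highest in replicate 3. Pdzk1ip1 (2.22), Syn2 (2.21), the serpin Serpina3m (2.13) and the acute-phase gene Orm3 (1.95) made up the rest. Pdzk1ip1 was not called without DRF ZT20 replicates 2 or 3 (adjusted p = 0.0564 to 0.0619). Exons of Syn2 overlap those of Timp4 on the opposite strand, which itself differed by 1.59, and Serpina3m and Orm3 belong to families of close copies, so that their reads are uncertain between members.

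The 12 largest falls held Nr1d1, Nr1d2, Dbp, Bhlhe41 and Pik3ip1, described above, and 7 others. Mmp2, a gelatinase of stromal cells, had 69.3, 48.9, 45.1 and 52.7 CPM under DRF ZT20 and 142, 131, 128 and 172 CPM under NRF ZT8 (difference -1.40 ± 0.14, adjusted p = 0.00101). Mfap2, a microfibril protein, had 5.45, 4.21, 3.41 and 5.13 CPM against 18.4, 19.7, 12.7 and 21.9 CPM (difference -1.78 ± 0.18, adjusted p = 0.000922). Cpxm1, a secreted carboxypeptidase-like protein that binds collagen, had 20.97, 13.2, 14.9 and 23.2 CPM against 44.6, 50.7, 52.05 and 48.3 CPM (difference -1.42 ± 0.16, adjusted p = 0.00197). Within NRF ZT8, replicate 4 was the highest library for Mmp2 and Mfap2 and replicate 3 for Cpxm1. Adipose progenitor markers summed to 1856 to 2174 CPM under DRF ZT20 and 1815 to 3102 CPM under NRF ZT8, with overlap. Of their 6 estimates 5 were lower (median -0.21), and their part in these falls was not tested. Cybrd1, a ferric reductase, had 7.08, 7.23, 7.97 and 7.79 CPM against 20.5, 32.7, 17.00 and 23.7 CPM (difference -1.48 ± 0.17, adjusted p = 0.00197). Pcsk4, a proprotein convertase, had 10.6, 8.48, 9.85 and 9.01 CPM against 34.2, 26.4, 34.4 and 25.1 CPM (difference -1.56 ± 0.13, adjusted p = 0.000307). Zim1, an imprinted zinc finger gene (difference -1.54 ± 0.26, adjusted p = 0.0117), and Plppr3, a lipid phosphatase-related protein (difference -2.36 ± 0.39, adjusted p = 0.0101), completed the set. Exons of Plppr3 overlap those of Prtn3 and Ptbp1 on the opposite strand. Prtn3 itself differed by -1.42 (adjusted p = 0.0283), the direction of Plppr3, and Ptbp1 by 0.05, so that reads of the shared stretches cannot be assigned between them.

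Finally, the fasting-aligned pair was set against the fed pair across all genes, to ask where ZT20 minus ZT8 was unequal in fasted and fed mice. This quantity is also the sum of the DRF minus NRF differences at ZT20 and at ZT8, so that a difference of regimen at both times and a difference between fasted and fed pairs cannot be told apart by it. The test of the difference of differences called 115 of 15696 genes (0.733%), 62 (0.395%) with a higher and 53 (0.338%) with a lower value in fasted mice. Single libraries moved this count strongly, to 687 without DRF ZT8 replicate 1, the library with epithelium markers, 264 without NRF ZT8 replicate 3 and between 19 and 71 without any of DRF ZT20 replicates 2 to 4, NRF ZT8 replicates 1, 2 and 4 or the NRF ZT20 libraries. The fit of the fasted pair alone called 1480 genes. The fed difference, taken in a fit that held both pairs, was called in 101, so the counts come from unlike fits. In both, 37 genes were called, 2.5% of the fasted and 36.6% of the fed calls, and 33 of the 37 had the same sign. Of all 1480 fasted calls, 1012 (68.4%) had the same sign in the fed pair, and Pearson's r over all genes was 0.206, a description over genes that are not independent. Without DRF ZT8 replicate 1 the fed pair had 168 calls, 48 of them called in the fasted pair and 37 of those 48 with the same sign. Only 765 of the 1480 then had the same sign, down from 1012, so the share with the same sign depended on this library. The r above includes it.

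Of the 12 genes ranked by this difference, Pcsk4 had the lowest adjusted p. It fell in the fasted pair and was higher at ZT20 in the fed pair, by 0.91 ± 0.13 (adjusted p = 0.00267). Its 4 groups lay at 8.48 to 10.6 CPM (DRF ZT20), 25.1 to 34.4 CPM (NRF ZT8), 20.5 to 25.6 CPM (NRF ZT20) and 9.79 to 13.6 CPM (DRF ZT8), and the difference of differences was -2.46 ± 0.18 (adjusted p = 4.36e-06). In both pairs, then, Pcsk4 was lower under DRF than under NRF. Podnl1 was the reverse, higher under DRF in both pairs, with 2.43 to 5.41 CPM under NRF ZT20 and 11.5 to 30.9 CPM under DRF ZT8 and a difference of differences of 4.31 ± 0.54 (adjusted p = 0.00451). Ncan (3.57 ± 0.58, adjusted p = 0.0134) had estimates of the same signs. Its fed difference of -1.07 ± 0.41 was not called (adjusted p = 0.298). Hsd11b1 (3.26 ± 0.45, adjusted p = 0.007) was higher under DRF ZT20 and overlapped in the fed pair, with 45.02 to 52.9 CPM under NRF ZT20 and 40.7 to 178 CPM under DRF ZT8. Cdkn1a (2.52 ± 0.54, adjusted p = 0.0438) and Pdzk1ip1 (2.70 ± 0.60, adjusted p = 0.0498) were lowest under NRF ZT8. In the other direction, Ifi27l2a, an interferon-inducible gene, had 193, 259, 229 and 270.3 CPM under DRF ZT20 and 293, 2268, 503 and 559 CPM under NRF ZT8, and the difference of differences was -3.10 ± 0.66 (adjusted p = 0.0438). Gpx3, plasma glutathione peroxidase, had 828, 643, 531 and 686 CPM against 961, 2963, 1245 and 1876 CPM (-2.64 ± 0.52, adjusted p = 0.0292). Replicate 2 of NRF ZT8 was the highest library in both. Tuba8 (-2.37 ± 0.49, adjusted p = 0.0357) and Plppr3 (-2.67 ± 0.58, adjusted p = 0.0489) were also lower. Leaving out single libraries ended the calls of Cdkn1a, Pdzk1ip1, Tuba8, Ifi27l2a and Plppr3 in 11 to 13 of 16 fits and that of Gpx3 in 8, whereas Pcsk4, Podnl1, Ncan and Hsd11b1 passed in all 16. With no filter these 6 calls were lost as well (adjusted p = 0.0598 to 0.0974), that of Pdzk1ip1 was also lost with a pseudocount of 0.25 CPM, median-of-ratios size factors or robust empirical Bayes (adjusted p = 0.0506 to 0.0749), and that of Plppr3 with plain totals, voom weights or robust empirical Bayes (adjusted p = 0.0502 to 0.0542). Of the genes named in any comparison, 17 were called here with all libraries, and 16 more without DRF ZT8 replicate 1, among them Mmp2 (-1.79 ± 0.29, adjusted p = 0.00543), Orm3 (1.98 ± 0.38, adjusted p = 0.0146) and Cfd.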

How the data were processed

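RNA of VAT was sequenced as paired 150-base reads from a non-stranded kit, and the tools listed in the submitters' processing notes were HISAT2 2.0.5 and featureCounts 1.5.0-p3 with build mm10. The authors deposited 1 table under the name TPM, whose values are treated here as a score: by their steps they are log2(CPM + 1) set per base of exon and rescaled per library before the authors deposited them, a scaling not described in the sources used here. The score is not linear and was compared within a gene only. The score was taken back to log2(CPM + 1) with exon lengths of GENCODE M21 for 25052 genes. For 884 genes the length was instead derived from the values themselves, 2 genes were too abundant to test, and 1 was not resolved. Of 1262086 values tested, 100.0% came out no further than 0.02 from an integer read count. For the 884 genes such closeness is no independent check of the length. In all, 25938 of 25939 genes could be resolved. Differences of log2(CPM + 1), pseudocount 1 CPM, were tested with limma 3.58.1 (R 4.3.3, intensity trend, Benjamini-Hochberg adjustment). For the main pair and the differences of differences, only the compared groups were fitted. The fed pair and the 4-h pair were read from the fits of those differences of differences, which also held the main pair.

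Members and gene lists were chosen with earlier results of these data known. Named genes were every clock and cold-inducible member, up to 4 called and 2 uncalled members of other lists, the 12 largest rises and falls, and the 6 largest differences of differences each way. Of these, 3 genes are not reported here. Other genes were chosen after their values were seen. Alternatives covered scaling, filter, pseudocount, test, block and each library left out. Recovery was tested on simulated data. Sequences came from RefSeq. Where genes of close copies or overlapping exons share reads, the split is unknown.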

Additional observations from a re-analysis of the deposited data

Results flagged for a closer look

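Among 186 combinations of a named gene and 1 of the 2 fasted groups, 9 had a library far from the other 3, by Dixon's ratio of gap to range, and chance alone flags about 1 in 20. Of these, 7 lay in NRF ZT8. Replicate 3 was the lowest for Arntl (ratio 0.841, 2.31 CPM) and Ccnb2 (0.865, 1.18 CPM) and the highest for Nr1d2 (0.841, 151 CPM), Usp2 (0.858) and Tspan4 (0.842). Replicate 2 was the lowest for Rbp4 (0.850, 308 CPM) and replicate 1 for Por (0.904). Under DRF ZT20, replicate 1 was the highest for Myc (0.831) and the lowest for G0s2 (0.897, 135 CPM).

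Differences that were unequal between the fasted and the fed pair were flagged by the test of that difference, in log2(CPM + 1): Podnl1 (4.31), Ncan (3.57), Hsd11b1 (3.26), Pdzk1ip1 (2.70) and Cdkn1a (2.52) upward, and Ifi27l2a (-3.10), Plppr3 (-2.67), Gpx3 (-2.64), Pcsk4 (-2.46), Tuba8 (-2.37) and Bhlhe41 (-2.24) downward. Between 8 h and 4 h without food, Arntl (3.08), Nfil3 (1.72), G0s2 (1.45), Axin2 (0.93), Dtx4 (0.92) and Jpt2 (0.88) changed upward, and Dbp (-3.04), Per2 (-2.62), Per3 (-2.15), Hlf (-2.12), Bhlhe41 (-2.04) and Tef (-2.03) downward.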

How the results depend on the processing

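The count of 1480 genes was 649 with no filter on low values, 407 on the deposited values unchanged, 2861 in 1 fit of all 56 libraries, 191 with a difference of at least 2-fold, and ranged from 232 to 2849 when 1 library was left out. The 115 genes of the fasted against fed test were 61 with no filter, 13 on the deposited values and 673 with all 56 libraries, and ranged from 19 to 687 when 1 library was left out. The 41 genes of the 8 h against 4 h test were 18 on the deposited values and ranged from 19 to 58 when 1 library was left out. The labels number the libraries in each group, but same-numbered libraries of the 2 fasted groups did not deviate together in every pair (correlations over genes 0.33, -0.13, 0.37 and -0.06). Differently numbered libraries also did, DRF ZT20 replicate 4 with NRF ZT8 replicate 2 (0.45) and DRF ZT20 replicate 2 with NRF ZT8 replicate 4 (0.32). The numbers were therefore not taken as pairs. With a replicate block the 3 counts were 2363, 196 and 36. The block called 13 genes of cholesterol synthesis, 9 of fatty acid synthesis, 5 higher and 1 lower endoplasmic reticulum chaperones, 6 lower clock repressors, 2 higher and 1 lower immediate early genes, 2 adipokines, 2 interferon-stimulated genes and 1 proliferation gene. In the main test it added the calls of Thrsp (adjusted p = 0.0476), Per1 (0.0476), Bhlhe40 (0.0333), Mt1 (0.0209) and Klf6 (0.0207). It ended the calls of Abhd5 (adjusted p = 0.0585) and Myc (0.0525). It also ended those of Pdzk1ip1 and Plppr3 in the fasted against fed test (0.0665 and 0.0589) and Jpt2 in the 8 h against 4 h test (0.0617). Of 93 genes named for the main pair, 9 changed sign under some alternative, none of them called in the main test or under that alternative. In the fed pair, 101 genes were called, and 168 without DRF ZT8 replicate 1, an alternative chosen after seeing the data. Of 117 named results, the deposited values ended the call of 44, no filter that of 23, and each other setting that kept all libraries that of 8 or fewer. The cause was not tested. Depth, at 31165897 to 40506351 reads, was higher in every NRF ZT8 library than in any DRF ZT20 library.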
